A study of Bos taurus with 8 samples.

Results

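VNN1 and VNN2, the vanin pantetheinases, are described here, taken as all probes that the platform annotation assigns to either symbol, on all 8 arrays. They are 2 of the 15216 gene symbols on the array and have 1 probe each, 2 of 43794 probes. Both genes were chosen by their log2 ratios at 6 h and 22 h in these same arrays, so their levels and ratios are given as descriptions with their errors and without a test. As each gene has a single probe, no other probe bears on its values, and whether either probe also takes up the other vanin's transcript was not tested.

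Vanins are enzymes anchored at the cell surface or secreted that split pantetheine, a breakdown product of coenzyme A, into pantothenate (vitamin B5) and cysteamine. Pantothenate can be taken up again for coenzyme A synthesis, and cysteamine is a small aminothiol that feeds taurine synthesis and acts on the redox state of thiols. In mouse, VNN1 is the main tissue pantetheinase and is known to act on glutathione stores and inflammation. In human, VNN2 is a GPI-anchored protein of neutrophils that takes part in their adhesion and migration. In the follicle, the surge of luteinizing hormone (LH) ends the proliferative life of granulosa cells, which line the follicle wall, and starts the inflammation-like events of ovulation and the change to luteal cells.

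RNA came from granulosa cells of Holstein Friesian cows at 3 times, 2 h before, 6 h after and 22 h after the LH surge. All cows had been synchronised with norgestomet and estradiol valerate, superstimulated with ovine FSH and given prostaglandin; the cows of both later times had also received GnRH to induce the surge, and their ovaries were removed 8 h and 24 h after it. The follicles measured 6 to 8 mm before the surge and over 8 mm at 6 h, and were preovulatory at 22 h, so follicle size and GnRH changed together with time and cannot be told apart from it. Per the labels' protocols, the cumulus-oocyte complex was aspirated first and the follicle wall then scraped, which yields mural granulosa cells with a few theca cells among them. Age is not given in the sources used here.

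Each array carried RNA of 1 replicate after the surge in one dye and RNA before the surge in the other, with 4 arrays for 6 h on 1 slide and 4 arrays for 22 h on the other. Slide thus changed together with time and cannot be told apart from it where 22 h is compared with 6 h. The post-LH RNA was in Cy5 in replicates 1 and 2 of each time and in Cy3 in replicates 3 and 4. The series' design text counts 4 biological replicates for each time, so that pre-LH RNA may have been used on more than 1 array, and the labels do not say how many cows made up a replicate. From 75.1% to 85.4% of probes were above background in a channel, and log2 ratios of arrays correlated over tested probes at 0.554 to 0.869 among the 6 h arrays, at 0.516 to 0.734 among the 22 h arrays and at 0.131 to 0.443 across the times. Of 12 granulosa markers, 11 were above background in every channel, and FOXL2 was so on 4 of 4 arrays at 6 h, 2 of 4 at 22 h and 6 of 8 before LH.

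Both vanins averaged higher after the surge than before it, with their largest differences at different times. VNN1 was 2.52-fold the pre-LH level at 6 h and 1.25-fold at 22 h, whereas VNN2 was 1.48-fold at 6 h and 25.3-fold at 22 h. In bulk samples, a change in the share of cells that carry a transcript and a change in transcript per cell cannot be told apart. Ratios are log2 of post-LH over pre-LH intensity within an array after background correction and loess normalisation. Channel levels are normalised log2 intensities, which have no fixed unit and which are not set against each other between the probes.

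VNN2 (probe EMBV3_23174) was among the genes with the largest differences at 22 h. Its raw post-LH spot intensities at 22 h were 17858.1, 17600, 16883.2 and 5529.3 in replicates 1 to 4, against 766.1, 717.9, 524.6 and 178.6 in the pre-LH channels of the same arrays. No spot was saturated in either channel. The spot of replicate 4 was the dimmest of the 4 in both channels, and on each array the post-LH channel was far above the pre-LH channel.

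The normalised log2 levels of VNN2 at 22 h were 14.28, 14.19, 13.84 and 12.31 after LH, against 9.62, 9.39, 9.14 and 7.84 before LH. The log2 ratios were 4.66, 4.81, 4.70 and 4.47, or 25.3-, 28.0-, 26.0- and 22.2-fold. Replicate 4 had the lowest level in both channels, yet its ratio was close to those of the other arrays. The mean log2 ratio was 4.66 ± 0.14 (SD, n = 4), with a standard error of 0.07 from the fit to all 8 arrays, and the fitted change ranked 5 from the highest of 14138 tested genes, with saturated spots of other genes taken at their measured value. In the authors' deposited table of processed log2 ratios the same arrays read 5.29, 5.10, 4.92 and 4.75.

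At 6 h the VNN2 signal was near that of the pre-LH RNA. Raw intensities were 262.2, 235.5, 327.1 and 316.3 after LH, against 285.2, 230.8, 160.9 and 136.5 before LH. The normalised log2 levels were 8.46, 8.51, 8.25 and 8.25 after LH, against 7.89, 7.70, 7.93 and 7.70 before LH. The groups of levels did not overlap, although the raw spots did, and the median raw spot of an array was 79.73 to 101.8 in Cy5 and 149.9 to 192.1 in Cy3. The log2 ratios were 0.57, 0.82, 0.32 and 0.55, all above 0, with a mean of 0.56 ± 0.20 (SD, n = 4; standard error of the fit 0.07). The authors' deposited table gave 0.65, 0.63, 0.67 and 0.88 for these arrays. With median centring in place of loess the fitted change was 0.51 with a standard error of 0.29.

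VNN1 (probe EMBV3_19268) showed the opposite order of the times. Its raw post-LH intensities at 6 h were 267.1, 565.3, 819.4 and 691.6 in replicates 1 to 4, against 270.1, 274.9, 221.7 and 157.4 before LH. The normalised log2 levels were 8.48, 9.67, 9.51 and 9.49 after LH, against 7.79, 7.85, 8.34 and 7.84 before LH. Replicate 1 had the lowest post-LH level and replicate 3 the highest pre-LH level, and the groups did not overlap. The log2 ratios were 0.69, 1.81, 1.18 and 1.65, with a mean of 1.33 ± 0.50 (SD, n = 4; standard error of the fit 0.21), which ranked 190 from the highest of 14138 genes. The authors' deposited table gave 0.65, 1.75, 1.84 and 1.97.

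At 22 h the VNN1 spots read 188.3, 297.1, 316.9 and 412.1 after LH, against 273.2, 278 and 222.1 in replicates 1 to 3 and 144.6 in replicate 4 before LH. The log2 levels were 7.97, 8.47, 8.11 and 8.66 after LH, against 7.90, 7.99, 8.19 and 7.82 before LH, and these ranges overlapped. The log2 ratios were 0.07, 0.48, -0.08 and 0.84, so that 3 of 4 arrays were above 0. Their mean of 0.33 was smaller than their spread (SD 0.41, n = 4; standard error of the fit 0.21). The authors' deposited table gave 0.07, 0.78, -0.18 and 0.84.

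**Figure D1:**
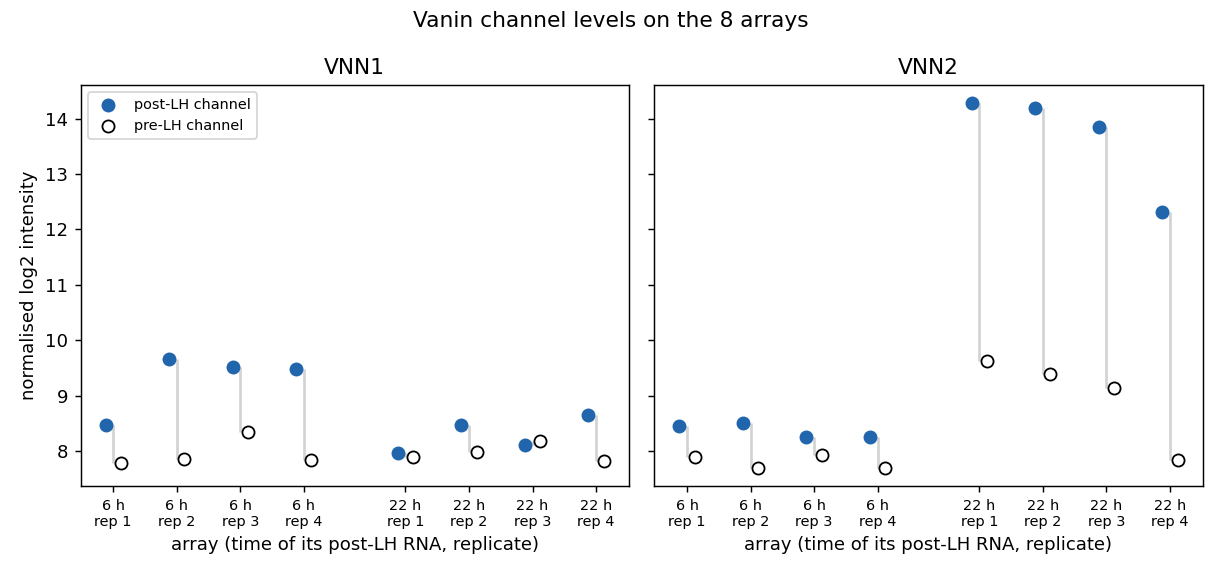
Normalised log2 intensity of VNN1 (left) and VNN2 (right) on each of the 8 arrays, with the post-LH channel as a filled point, the pre-LH channel as an open point and a line joining the channels of an array. VNN1 stands highest on the 6 h arrays, at 8.48 to 9.67 after LH, and VNN2 on the 22 h arrays, at 12.31 to 14.28, where the pre-LH points of replicates 1 to 3 are also raised.

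**Figure D2:**
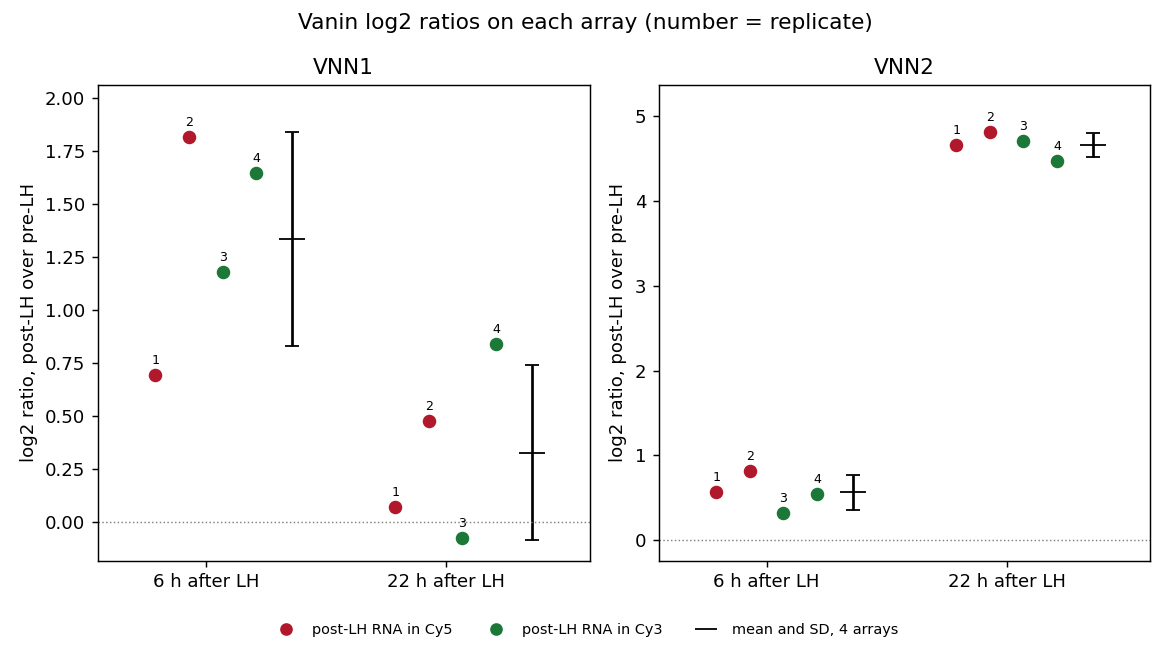
Log2 ratio of post-LH over pre-LH for VNN1 (left) and VNN2 (right) at 6 h and 22 h, on separate vertical scales. Each point is an array, numbered by replicate and coloured by the dye of its post-LH RNA, and the bar is the mean with its SD; the means are 1.33 and 0.33 for VNN1 and 0.56 and 4.66 for VNN2.

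Ordered by level over the 3 times, VNN1 averaged 7.96 ± 0.20 before LH (SD, n = 8 channels), 9.29 ± 0.54 at 6 h and 8.30 ± 0.32 at 22 h (n = 4 each). The 6 h channels, from 8.48 to 9.67, lay above all pre-LH channels, from 7.79 to 8.34. The 22 h channels, from 7.97 to 8.66, overlapped both of the other groups. The change at 22 h minus that at 6 h was -1.005 ± 0.301 (standard error of the fit), so that the 6 h ratio was 2.01 times the 22 h ratio.

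VNN2 averaged 8.40 ± 0.83 before LH (SD, n = 8 channels), 8.37 ± 0.14 at 6 h and 13.66 ± 0.92 at 22 h (n = 4 each). The lowest 22 h channel, 12.31, exceeded the highest of all others, 9.62. The 6 h level lay inside the range of all pre-LH channels and above those of its own slide. The change at 22 h minus that at 6 h was 4.10 ± 0.09 (standard error of the fit), or 17.1-fold, the third highest of 14138 genes.

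The pre-LH channels of VNN2 differed between the slides. They averaged 9.00 ± 0.80 on the 22 h arrays and 7.80 ± 0.12 on the 6 h arrays (SD, n = 4 each), a difference of 1.19. The pre-LH level on the array of replicate 4 at 22 h, 7.84, lay in the range of the 6 h arrays, 7.70 to 7.93, and those of replicates 1 to 3 lay above it. For VNN1 the same difference was 0.02, and over 38453 tested probes its median was -0.003, with 0.395% of probes above 0.5 and 0.0988% at or above VNN2. Besides VNN2, 14 probes changed by at least 3 at 22 h and by under 1 at 6 h. Their pre-LH channels differed between slides by a median of 0.21 (range -0.19 to 0.81). Of the 14, 11 (78.6%) were above 0, against 47.7% of all tested probes. Above 0.5 were 14.3% of the 14, and 0% were at or above VNN2.

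At 22 h the order of the 4 arrays by VNN2 level was the same in both channels, with replicate 1 highest and replicate 4 lowest. The local background around the VNN2 spot in the post-LH channel was 62, 82, 129 and 54 at 22 h and 17 to 26 at 6 h. In the pre-LH channel it was 22, 23, 29 and 26 at 22 h and 18, 20, 27 and 25 at 6 h. Whether signal of the bright channel or its surroundings entered the pre-LH reading was not tested. With the pre-LH level of the 6 h arrays in place of that on the same array, an alternative chosen after seeing the data, the VNN2 difference at 22 h was 5.85 on the log2 scale.

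The genes whose log2 ratios came nearest to those of VNN2 over the 8 arrays were HS3ST5, PTGS2, OLFML2B, LRIG1 and SMARCA1, by the root mean square difference after removal of the dye effect. HS3ST5, a heparan sulfate sulfotransferase, differed from VNN2 by 0.718, with fitted changes of 0.04 at 6 h and 3.83 at 22 h, and its other probe was at -0.02 at 22 h. PTGS2, the inducible prostaglandin synthase of ovulation, differed by 0.741, with changes of 0.27 at 6 h and 5.44 at 22 h, and its 3 tested probes ranged from 0.24 to 5.44 at 22 h. The brightest PTGS2 probe was above background on 3 of 4 arrays after LH at 6 h and on 0 of 4 before LH on that slide, so its 6 h value rests on dim spots. The Pearson correlation with VNN2 over the 8 arrays was 0.996 for HS3ST5 and 0.986 for PTGS2, and mainly reflects the step between 2 sets of 4 arrays.

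OLFML2B, an extracellular olfactomedin-domain protein, had changes of 0.77 at 6 h and 3.67 at 22 h. LRIG1, a membrane protein that restrains growth factor receptors, had 0.43 and 3.63. SMARCA1, a chromatin remodelling ATPase, had 0.42 and 3.52. Of the 5 genes, HS3ST5 and OLFML2B were also among the nearest 5 in the authors' deposited table. Median centring kept all but SMARCA1, and the mean of background pixels all but HS3ST5.

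The genes nearest to VNN1 were SELP, DOK5, DPH3, ADAMTS4 and ZBTB21. SELP, the adhesion molecule P-selectin, differed by a root mean square of 0.296, with changes of 1.54 at 6 h and 0.47 at 22 h. ADAMTS4, a protease of matrix proteoglycans, differed by 0.339, with changes of 1.30 and 0.45. DOK5, an adaptor of tyrosine kinase receptors, had 1.19 and 0.42. The several probes of DPH3 (0.20 to 1.49 at 6 h) and of ZBTB21 (0.03 to 1.38 at 6 h) did not read alike. Of these 5 genes, SELP, DPH3 and ADAMTS4 were also among the nearest 5 in the authors' deposited table, DOK5, DPH3 and ADAMTS4 with median centring, and DOK5 and ADAMTS4 with the mean of background pixels, so that ADAMTS4 alone was kept by each of these alternatives and SELP by 1 of them.

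**Figure D3:**
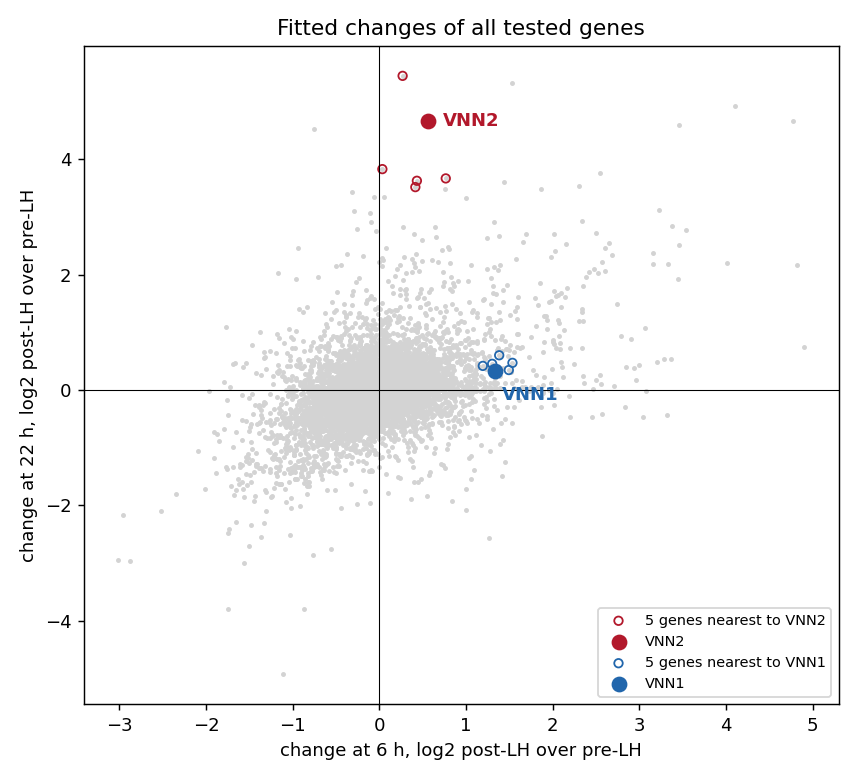
Fitted log2 change at 22 h (vertical) against that at 6 h (horizontal) for the 14138 tested genes in grey, with VNN1, VNN2 and the 5 genes nearest to each marked. VNN2 lies near the top, at 0.56 and 4.66, and VNN1 to the right near the horizontal axis, at 1.33 and 0.33; each axis is relative to the pre-LH channels of its own slide.

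In the reference gene table, VNN1 and VNN2 are separated by 1 pseudogene entry, and 4 of the 11 neighbouring entries were on the array and tested. The trace amine receptors TAAR5, TAAR2 and TAAR1 had changes of 0.04, -0.04 and 0.01 at 6 h and of -0.02, -0.01 and -0.04 at 22 h. RPS12, a protein of the small ribosomal subunit, read -0.21 ± 0.07 at 6 h (limma adjusted p = 0.0824) and fell at 22 h (-0.53 ± 0.07, limma adjusted p = 0.00308). The measured neighbours thus had values well under that of VNN2 at 22 h.

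The genes around the pantetheinase reaction were described by lists, with the moderated test of limma and a Benjamini-Hochberg adjusted p under 0.05, the adjustment covering 38453 probes, and changes are fitted log2 values ± standard error (n = 4 arrays for each time). By that rule 24.3% of 14138 genes were called at 6 h (11.5% higher, 12.8% lower), 20.4% at 22 h (9.75% higher, 10.6% lower) and 15.1% for 22 h minus 6 h (7.72% higher, 7.41% lower). With median centring in place of loess the counts of called genes were 85 at 6 h, 136 at 22 h and 22 for the difference, against 3437, 2878 and 2139. NT5E at both times, PLIN2 at 6 h and ENPP3 at 22 h kept their calls under median centring, and the other list genes named here as called did not, nor did any of the called differences between 22 h and 6 h. With the 22 h arrays alone 1025 genes were called, and the 22 h calls of PANK1, ENPP1, NADSYN1, TXNRD1, CDO1, PPARG, ACADM, PIGT, LYZ and RPS12 were lost (adjusted p from 0.0766 to 0.163).

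Of 11 tested genes of coenzyme A synthesis and pantothenate uptake, 4 rose and 2 fell at 6 h, 1 rose and 1 fell at 22 h, and 2 fell between 6 h and 22 h. The list's median changes were 0.03, -0.004 and 0.02, near the medians of all genes of -0.004, 0.006 and 0.008. SLC5A6, the sodium-coupled transporter that brings pantothenate into cells, rose at 6 h (0.46 ± 0.08, limma adjusted p = 0.00746) and fell at 22 h (-0.83 ± 0.08, limma adjusted p = 0.000758). Its change at 22 h minus that at 6 h was -1.29 ± 0.11 (limma adjusted p = 0.000965).

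Pantothenate kinases take the first step of coenzyme A synthesis. PANK1 rose at 6 h by 0.73 ± 0.09 (limma adjusted p = 0.00194) and at 22 h by 0.34 ± 0.09 (limma adjusted p = 0.045), with 2 of its 4 probes called at each time. PANK3 rose at 6 h (0.66 ± 0.13, limma adjusted p = 0.0158) and read 0.33 at 22 h (adjusted p = 0.175), and PANK4 read -0.04 and 0.48, neither called. The enzymes of the next steps, PPCS (-0.29 ± 0.08, adjusted p = 0.0443) and PPCDC (-0.40 ± 0.09, adjusted p = 0.0205), fell at 6 h in the limma fit. For PPCS, 1 of 2 tested probes was called lower.

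COASY, which completes coenzyme A, read 0.03 at 6 h and 0.51 ± 0.14 at 22 h (limma adjusted p = 0.06). SLC25A16, a mitochondrial carrier linked to coenzyme A, rose at 6 h (0.37 ± 0.04, limma adjusted p = 0.00183), and its change at 22 h minus that at 6 h was -0.53 ± 0.06 (limma adjusted p = 0.00307; adjusted p = 0.0503 without a dye effect). The carrier SLC25A42, the kinase-domain protein DCAKD and AASDHPPT, which moves phosphopantetheine onto carrier proteins, were called at neither time. SLC25A42 was dim, above background after LH on 4 of 4 arrays at 6 h and 2 of 4 at 22 h. Over the 8 fits that each left out 1 array, the 6 h calls of PANK3, PPCS and PPCDC were lost in 3, 6 and 3. Among these were the fits without replicate 1 of 6 h (adjusted p = 0.0663, 0.119 and 0.0997) and without replicate 2 (adjusted p = 0.0802, 0.188 and 0.109). PANK1 at 22 h lost its call when limma was run on the authors' deposited table of processed values (adjusted p = 0.097) and when replicate 2, 3 or 4 of 22 h was left out (adjusted p = 0.152, 0.107 and 0.159).

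The genes listed for breakdown of coenzyme A towards pantetheine, the vanin substrate, included a large rise and falls. Whether the products of these genes, NT5E among them, act on coenzyme A in these cells was not tested. Of 7 tested, 1 rose and 2 fell at 6 h and likewise at 22 h, with list medians of -0.004 and -0.02. The shares of all genes were 11.5% higher and 12.8% lower at 6 h, and 9.75% higher and 10.6% lower at 22 h. NT5E, the ectonucleotidase CD73, rose by 2.55 ± 0.11 at 6 h (limma adjusted p = 3.95e-05) and 3.76 ± 0.11 at 22 h (limma adjusted p = 1.32e-05), and its 22 h change was the larger by 1.21 ± 0.15 (limma adjusted p = 0.0043; adjusted p = 0.63 with median centring).

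The surface pyrophosphatase ENPP1 fell at 6 h (-1.42 ± 0.22, limma adjusted p = 0.0055) and at 22 h (-1.08 ± 0.22, limma adjusted p = 0.0189). Its relative ENPP3 fell at 6 h (-0.53 ± 0.14, limma adjusted p = 0.0448) and at 22 h (-1.43 ± 0.14, limma adjusted p = 0.00104). Leaving out replicate 1, 2 or 4 of 6 h took the 6 h call of ENPP3 away (adjusted p = 0.173, 0.129 and 0.146), as did a fit to the 6 h arrays alone (adjusted p = 0.0674) and one without background correction (adjusted p = 0.087). Leaving out replicate 1, 2 or 3 of 22 h did so for ENPP1 at 22 h (adjusted p = 0.0661, 0.0527 and 0.104). ENPP2, ALPL, NUDT7 and ACP5 were called at neither time. ALPL was dim, above background after LH on 3 of 4 arrays at 6 h and 1 of 4 at 22 h. Before LH it was so in 5 of 8 channels, and ACP5 in 7 of 8.

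Vanins belong to the nitrilase superfamily, whose enzymes split carbon-nitrogen bonds. Of 5 tested relatives, 0 rose and 2 fell at 6 h, 1 rose and 0 fell at 22 h, and 2 rose and 0 fell between 6 h and 22 h. Of all genes, 24.3% were called at 6 h, 20.4% at 22 h and 15.1% for the difference. At an unadjusted limma p under 0.05 the zeros stayed 0 and 3 relatives were lower at 6 h. NIT1, which removes deaminated glutathione, fell by 0.58 at 6 h (standard error 0.08, limma adjusted p = 0.00346). NIT2, an omega-amidase, fell by 0.42 at 6 h (standard error 0.06, limma adjusted p = 0.00489). At 6 h, 1 of 2 tested NIT1 probes and 1 of 4 tested NIT2 probes were called lower. NIT1 read -0.00 and NIT2 -0.04 at 22 h, and their changes at 22 h minus 6 h were 0.58 (limma adjusted p = 0.022) and 0.39 (limma adjusted p = 0.0394). The difference of NIT1 was lost when replicate 1, 2 or 3 of 6 h or replicate 3 of 22 h was left out (adjusted p from 0.0534 to 0.0743), and that of NIT2 with any single array but replicate 2 of 22 h left out (adjusted p from 0.0547 to 0.113).

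NADSYN1, which makes NAD, rose at 22 h (0.86 ± 0.18, limma adjusted p = 0.023), a call lost without replicate 3 of 22 h (adjusted p = 0.115) or replicate 4 of 22 h (adjusted p = 0.0535). BTD, the biotinidase that is the nearest relative of vanins on the array, read -0.18 (adjusted p = 0.121) at 6 h and -0.08 (adjusted p = 0.495) at 22 h in limma. UPB1 read 0.02 at both times, and VNN3 was not on the array.

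**Figure D4:**
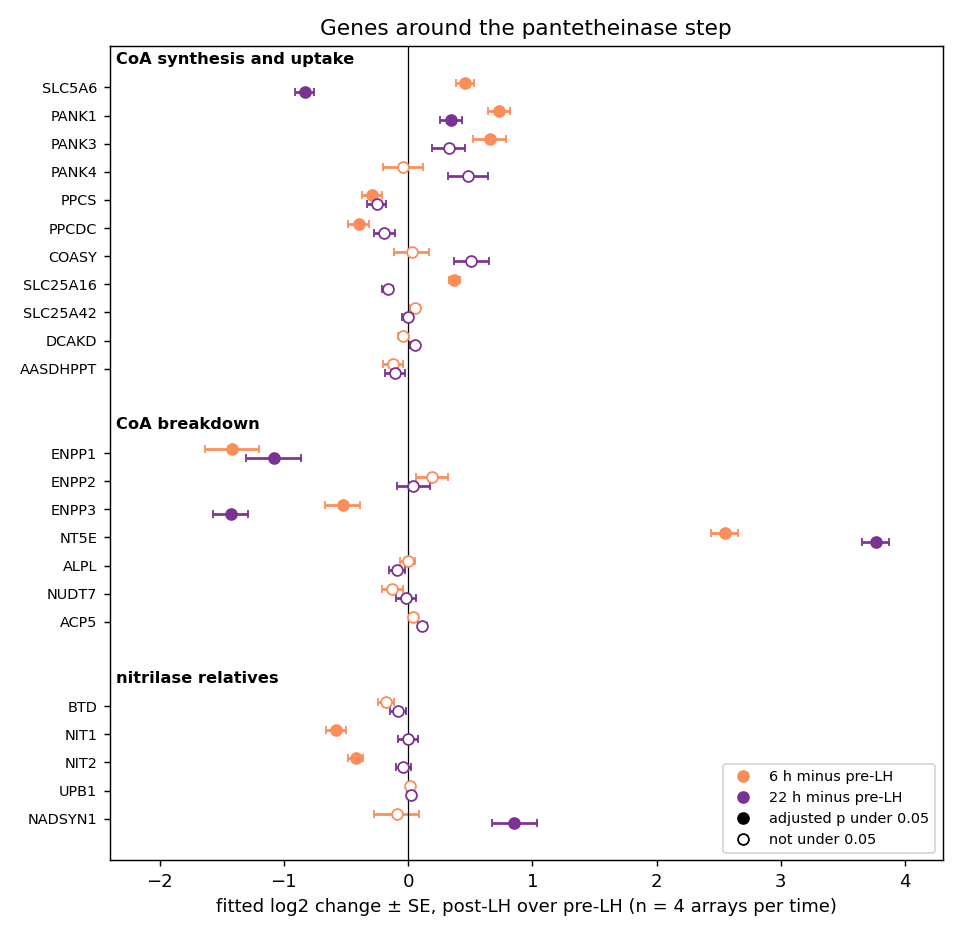
Fitted log2 change with its standard error at 6 h and 22 h (n = 4 arrays for each time). The tested genes are those listed for coenzyme A synthesis and uptake, coenzyme A breakdown and the nitrilase relatives of vanins. Filled points passed the limma adjusted p of 0.05; NT5E stands alone on the right at 2.55 and 3.76, and SLC5A6 lies on opposite sides of 0 at 0.46 and -0.83.

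Cysteamine, the other vanin product, bears on taurine and thiol metabolism. Of 17 tested genes of taurine, glutathione and thioredoxin metabolism, 6 rose and 1 fell at 6 h and 2 rose and 2 fell at 22 h. The list medians were 0.01 and 0.02. The shares of all genes were 11.5% higher and 12.8% lower at 6 h, and 9.75% higher and 10.6% lower at 22 h. Thioredoxin, TXN, rose at 6 h (1.35 ± 0.11, limma adjusted p = 0.000392), as did its reductase TXNRD1 (1.36 ± 0.08, limma adjusted p = 0.000105). At 22 h the called rises were those of GCLM, a subunit of the first enzyme of glutathione synthesis (0.99 ± 0.11, limma adjusted p = 0.0018), and CDO1, the cysteine dioxygenase on the way to taurine (0.83 ± 0.13, limma adjusted p = 0.0068). The called falls at 22 h were those of GCLC, the catalytic subunit that pairs with GCLM (-0.43 ± 0.05, limma adjusted p = 0.00243; adjusted p = 0.0842 without a dye effect), and TXNRD1 (-0.34 ± 0.08, limma adjusted p = 0.0276). Leaving out replicate 1, 2 or 4 of 22 h (adjusted p from 0.0852 to 0.0949) took the call from this fall of TXNRD1, as did leaving out replicate 1 of 6 h (adjusted p = 0.0553). Of 2 tested TXNRD1 probes, 1 was called higher at 6 h and 1 lower at 22 h.

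VNN1 is a target of the fatty acid receptor PPARA in mouse liver, so receptors and targets of that family were listed. Of 15 tested genes, 2 rose and 4 fell at 6 h, and 4 rose and 1 fell at 22 h, with medians of -0.01 and 0.05. Of all genes, 11.5% were called higher and 12.8% lower at 6 h, and 9.75% higher and 10.6% lower at 22 h. PPARA itself was on the array but not tested, as its probe was too dim. PLIN2, the lipid droplet coat protein, rose by 2.69 ± 0.05 at 6 h (limma adjusted p = 1.77e-06) and 2.35 ± 0.05 at 22 h (limma adjusted p = 3.73e-06). PPARG, the receptor of the family known from fat cells, fell at 6 h (-1.17 ± 0.11, limma adjusted p = 0.000886) and rose at 22 h (0.44 ± 0.11, limma adjusted p = 0.0456). ACADM, an enzyme of fatty acid oxidation, fell at 6 h (-0.96 ± 0.15, limma adjusted p = 0.00587) and rose at 22 h (1.02 ± 0.15, limma adjusted p = 0.00528). Of 3 tested ACADM probes, 2 were called lower at 6 h and 1 higher at 22 h. The 22 h call of PPARG was lost in 6 of the 8 fits that left out 1 array, among them those without replicate 1, 2 or 4 of 22 h (adjusted p from 0.136 to 0.164), and without background correction (adjusted p = 0.137).

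Vanins reach the cell surface on a GPI anchor. Of 9 tested genes of anchor synthesis and attachment, 0 rose and 4 fell at 6 h, with a median of -0.28, and 1 rose and 0 fell at 22 h, with a median of 0.10; at an unadjusted limma p under 0.05, 1 was higher at 6 h and 1 lower at 22 h. These counts take the brightest probe of each gene. So do the shares of all genes called, 11.5% higher and 12.8% lower at 6 h, and 9.75% higher and 10.6% lower at 22 h. For PIGM, whose brightest probe was called at neither time, 1 of 2 tested probes was called higher at 6 h and 1 lower at 22 h. The transamidase subunit PIGT fell by 0.61 at 6 h (standard error 0.08, limma adjusted p = 0.00294) and was the gene that rose at 22 h (0.39 ± 0.08, limma adjusted p = 0.0212). Leaving out either replicate 1 (adjusted p = 0.0783) or replicate 3 (adjusted p = 0.102) of 22 h took this 22 h call of PIGT away.

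Markers of other cells that the scraped layer could hold were read beside the vanins. Of 15 tested neutrophil and monocyte markers, 3 rose and 0 fell at 6 h and 0 rose and 1 fell at 22 h; at an unadjusted limma p under 0.05, 0 were lower at 6 h and 1 was higher at 22 h. Their median changes were 0.03 and -0.05. Of all genes, 11.5% were called higher and 12.8% lower at 6 h, and 9.75% higher and 10.6% lower at 22 h. S100A9, a calcium-binding protein of neutrophils, rose at 6 h (1.07 ± 0.20, limma adjusted p = 0.0118). That call was lost when either replicate 1 (adjusted p = 0.0714) or replicate 2 (adjusted p = 0.0679) of 6 h was left out of the limma fit. S100A9 was above background on 3 of 4 arrays after LH at 6 h and in 3 of 8 pre-LH channels. SPI1, a transcription factor of myeloid cells (0.49 ± 0.10, limma adjusted p = 0.018), and CD14, a surface receptor of monocytes (0.35 ± 0.09, limma adjusted p = 0.0342), also rose at 6 h and were above background in every channel. SPI1 lost its call without replicate 2, 3 or 4 of 6 h (adjusted p from 0.0555 to 0.0854), and CD14 in 5 of the 8 fits that left out 1 array, among them those without replicate 1, 2 or 4 of 6 h (adjusted p from 0.0791 to 0.118). LYZ, lysozyme, was the marker that fell at 22 h (-0.45 ± 0.11, limma adjusted p = 0.0376), a call lost in 5 of these 8 fits, among them those without replicate 1, 2 or 3 of 22 h (adjusted p from 0.0573 to 0.154). PTPRC, the common leukocyte antigen CD45, read -0.14 at 6 h and -0.13 at 22 h. MPO, the neutrophil peroxidase, was above background on 2 of 4 arrays at 6 h, on 0 of 4 at 22 h and in 2 of 8 pre-LH channels.

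The summed linear intensity of the neutrophil and monocyte markers was 3958 to 6710 at 6 h, against 3439 to 5819 before LH on the same arrays, and 3452 to 7495 at 22 h, against 3437 to 5611 before LH, so that the ranges overlapped at both times. Of these 15 markers, 8 were above background in every post-LH channel and 8 in every pre-LH channel. For 6 tested lymphocyte markers the sums were 1023 to 1267 at 6 h, against 942 to 1425 before LH, and 1037 to 1262 at 22 h, against 990.3 to 1404 before LH. In limma 0 of them were called at either time, against 24.3% of all genes at 6 h and 20.4% at 22 h. At an unadjusted p under 0.05, 0 were higher and 0 lower at 6 h, and 1 was higher and 0 lower at 22 h. The part of such cells in the vanin values was not tested.

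Of 8 tested theca markers, 1 rose and 5 fell at 6 h and 0 rose and 7 fell at 22 h (0 higher at an unadjusted limma p under 0.05). Their summed intensity was 19068 to 25631 at 6 h, against 27246 to 41467 before LH, and 12822 to 26925 at 22 h, against 28265 to 41476 before LH. Of 9 tested endothelial markers, 1 rose and 1 fell at 6 h and 0 rose and 5 fell at 22 h (0 higher at an unadjusted limma p under 0.05). Beside these counts, 11.5% of all genes were called higher and 12.8% lower at 6 h. At 22 h these shares were 9.75% and 10.6%. The granulosa markers themselves moved too, with 0 of 12 higher and 8 lower at 6 h (0 higher at an unadjusted limma p under 0.05) and 1 higher and 5 lower at 22 h. Their summed intensity was 72063 to 91449 at 6 h, against 95337 to 107485 before LH, and 28475 to 89914 at 22 h, against 91212 to 104963 before LH. These linear sums weigh INHBA and INHA most, as their mean pre-LH log2 levels of 15.31 and 15.19 were the highest of the list. Their fitted changes were -0.11 and -0.23 at 6 h, neither called, and -1.95 and -0.11 at 22 h. The VNN1 and VNN2 values thus stood beside lower sums of both theca and granulosa markers at both times, without overlap, and the part of this in the vanin values was not tested.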

How the data were processed

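Per the labels' protocols, the RNA underwent linear amplification and chemical labelling with Cy3 or Cy5. The deposited scanner files hold raw spot and background intensity values of both dyes, not normalized, per the file headers. A table deposited by the authors holds processed log2 ratios by steps that the sources used here do not give. Against ratios computed from the scanner values of the same array they correlated at 0.822 to 0.906 with slopes of 1.07 to 1.26 and medians of -0.016 to 0.00502, so they were read as post-LH over pre-LH, centred near 0, and used as an alternative.

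Mean spot intensity was corrected by the median of background pixels with normexp (offset 50), and ratios were normalised by loess within arrays, with 1418 control spots at weight 0 (limma 3.58.1, R 4.3.3). Channel levels were taken after loess and Aquantile. Testing required a spot above the 95th percentile of 153 negative controls in at least a 0.5 share of arrays, in 1 or more of the 3 RNA groups. A gene is its brightest tested probe. The platform annotation gave gene symbols, of which 1524 were brought up to date with a reference gene table (ARS-UCD2.0); 21790 probes had 1 symbol and 22004 none. Ratios were fitted with both times and a dye effect in limma (lmFit, eBayes; 5 residual degrees of freedom), and p-values adjusted by Benjamini-Hochberg over 38453 probes. The script was tested on simulated data.

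The vanin genes, the 11 gene lists and the tests were chosen with earlier results of these data known. Named list genes were up to 4 with the largest called change in a list and comparison, any gene of the coenzyme A and nitrilase lists, the 5 nearest patterns, and 5 neighbours on either side in the gene table. Where nothing says that replicates came from separate cows, p-values measure only the spread between these samples. The 8 arrays limit the precision. Over all tested probes, same-numbered arrays of both times had residual correlations of -0.103, 0.179, 0.108 and -0.296. The numbers were therefore not taken as pairs. The raw pre-LH VNN1 spots, however, ran close by number. They were 270.1, 274.9, 221.7 and 157.4 in replicates 1 to 4 on the 6 h arrays. On the 22 h arrays they were 273.2, 278, 222.1 and 144.6. The pre-LH dye also went with the number. Whether pre-LH RNA was shared by number was not tested. Probe and transcript sequences were not used here. Alternatives covered background, normalisation, the filter on dim probes, saturation, the dye term, each replicate left out and a replicate block.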

Additional observations from a re-analysis of the deposited data

Results flagged for a closer look

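Among 20 groups of 4 vanin values, 3 held a value whose gap to the others was large for the group's range. Chance gives about 1 in 20 for separate groups, but these groups are levels, spots and ratios of the same 8 arrays, so that rate does not hold for their number, and the values are given as a description. The raw VNN2 spot after LH on the array of replicate 4 at 22 h was 5529.3, against 16883.2 to 17858.1 on the other arrays of that time, while its log2 ratio of 4.47 lay near the others. The VNN1 level after LH on the array of replicate 1 at 6 h was 8.48, and the VNN1 level before LH on the array of replicate 3 at 6 h was 8.34.

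For 6 genes of the coenzyme A and nitrilase lists, the change at 22 h differed from that at 6 h by limma's test of the difference. By the same test 15.1% of all genes were called. The differences were -1.29 for SLC5A6, -0.53 for SLC25A16, -0.90 for ENPP3, 1.21 for NT5E, 0.58 for NIT1 and 0.39 for NIT2. Leaving out replicate 1 of 6 h took away the limma calls of the ENPP3, NIT1 and NIT2 differences (adjusted p = 0.086, 0.0534 and 0.0547). Over the 8 fits that each left out 1 array, these differences lost their calls in 6, 4 and 7. With median centring each of the 6 differences lost its call, that of NT5E with an adjusted p of 0.63.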

How the results depend on the processing

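All VNN2 and VNN1 differences kept their direction under every alternative that was run. Their precision did not: with median centring the standard error of VNN2 was 0.292 at each time, against 0.066 with loess. For VNN1 it was 0.255, against 0.213. VNN2 at 22 h minus pre-LH was 4.50 when arrays were centred on their medians instead of by loess, 5.02 in the deposited processed values, 4.48 with the mean of background pixels and 5.85 with the pre-LH level of the 6 h arrays, the last pair chosen after seeing the data. With one array left out at a time, VNN2 ranged from 0.50 to 0.62 at 6 h, from 4.60 to 4.70 at 22 h and from 4.04 to 4.16 for 22 h minus 6 h. VNN1 ranged from 1.11 to 1.56, from 0.15 to 0.52 and from -1.23 to -0.79. The counts of called genes ranged from 1933 to 3765 at 6 h (1967 without replicate 1 of 6 h, 1933 without replicate 2), from 1473 to 2836 at 22 h (1473 without replicate 3 of 22 h) and from 1187 to 2052 for the difference (1328 without replicate 1 and 1187 without replicate 2 of 6 h, 1291 without replicate 3 of 22 h). Median centring gave 85, 136 and 22 genes, and only the 22 h arrays gave 1025. For coenzyme A synthesis and uptake, the count of called genes was 0 at both times and for the difference with median centring. At 22 h it was 4 without background correction, 4 with the replicate block, 1 without a dye effect and 1 with the 22 h arrays alone; for the difference it was 1 without a dye effect. With one array left out it ranged from 3 to 6 at 6 h (3 without replicate 1 or 2 of 6 h), from 1 to 3 at 22 h (1 without replicate 1 or 2 of 6 h or replicate 3 of 22 h) and stayed at 2 for the difference. The replicate block gave 3359, 2854 and 2022 called genes. Over all tested probes, residual correlations of same-numbered arrays lay between -0.296 and 0.179. For VNN1 the block lowered the standard error from 0.213 to 0.0996 at each time. For 22 h minus 6 h it went from 0.301 to 0.141. Under the block the calls of ENPP3 at 6 h (adjusted p = 0.0855) and for 22 h minus 6 h (adjusted p = 0.0709) and of TXNRD1 at 22 h (adjusted p = 0.053) were lost, and no other of the single calls followed here. For 43 pairs of a called gene and a comparison, there were 767 values under alternatives, of which 627 stayed past the threshold in the same direction, 140 did not pass and 0 reversed; the cause of the lost calls was not tested. Dim spots limit VNN1 at every time and VNN2 before LH and at 6 h, and VNN1 at 6 h was 1.485 with a normexp offset of 16, against 1.332 with 50. A fit with only the arrays of 1 time could not be made for 22 h minus 6 h.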
